A study of Urocitellus parryii with 3 samples.

Results

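The miR-30 family of microRNAs was followed in liver RNA of a hibernating rodent, the arctic ground squirrel (Urocitellus parryii). Its 5 members, listed on the array as mmu-miR-30a, mmu-miR-30b, mmu-miR-30c, mmu-miR-30d and mmu-miR-30e, were taken by name from the 567 mouse miRNA entries of an Agilent microarray, a rule that reads no intensity. The prefix mmu, for mouse, is left out from here on. The groups were liver in late torpor (spelled "late topor" in the labels), liver in early arousal and liver after reproduction. Each was a mixture of total RNA in equal amounts from animals of that stage, with 100 ng labelled with Cy3 for 1 array. No genotype, treatment, age or sex is given in the sources used here, and neither is how many animals made up a pool. The probes were designed on mouse miRNAs, so the squirrel RNA was read through mouse sequences. All 3 arrays lay on 1 slide. The stage of a pool cannot be told apart from the pool itself or from its place on the slide.

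The members of the miR-30 family share their seed, bases 2 to 8 from the 5′ end, which is the stretch through which a miRNA recognises most of its target messenger RNAs. They differ outside it, mainly towards the middle and the 3′ end, so their target sets overlap without being known to be the same. In mammals the family is expressed in many differentiated tissues, among them liver, kidney and heart. Its studied targets include Snai1, a driver of the epithelial to mesenchymal transition, Ccn2, a matrix-associated growth factor, and Becn1, a component of the autophagy machinery. In mouse liver, miR-30c is known to target Mttp, which loads lipid onto nascent lipoproteins. The strand of a miRNA hairpin that is loaded to act is the guide, and the opposite strand, marked with a star in array names, is the passenger and is usually degraded.

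Each member had 2 or 3 probes and 20 spots per array, with 11 probes in all. In the files, the targets of a member's probes shared 1 end and differed by 1 base in length from one probe to the next. They spanned 15 to 17 bases for miR-30a, 16 to 17 for miR-30b and miR-30e, 17 to 18 for miR-30c and 13 to 14 for miR-30d. The target of miR-30a lay on mouse chromosome 1 at 23279118 to 23279134 (mm9) and that of miR-30c at 23298558 to 23298575, 19.4 kb away. The targets of miR-30b, at 68169031 to 68169047, and miR-30d, at 68172819 to 68172832, lay 3.79 kb apart on chromosome 15. The target of miR-30e lay on chromosome 4 at 120445265 to 120445281. The passenger strand of the other miR-30c hairpin, miR-30c-1*, was 3.11 kb from it, at 120442151 to 120442169. miR-30c itself is made from hairpins on both chromosome 1 and chromosome 4, and its probes cannot tell these sources apart. Whether a probe for 1 member also took signal from its close relatives was not tested, so the members need not be separate measurements.

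The deposited value of a spot is its intensity after a fitted background trend was removed. All 100 member spots were well above background and below saturation on each array. They ranged from 52.1 to 1021 intensity units, while the median negative control spot lay between 1.21 and 1.69. The SD of the negative control spots was 4.13 units in late torpor, 3.61 in early arousal and 11.6 in post-reproduction. Spots flagged as outliers were left out, 5 member spots over the 3 arrays. Within a probe and array the coefficient of variation of the intensity over 6 to 10 spots had a median of 4.16% and was at most 8.36%. To set arrays side by side, each was divided by its own 75th percentile, taken over 250 probes that were detected on every array. That percentile was 349 units for late torpor, 350 for early arousal and 398 for post-reproduction. A scaled value is given as log2, averaged over the spots of a probe and then over a member's probes, and 0 means the intensity of that percentile. Probes differ in brightness for reasons of their own, so levels are compared between stages and never between members.

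With 1 array a stage no test between stages could be made. Standard errors (SE) and 95% intervals come from the spots and cover the spread of spots only. A rule of size took the place of a test. It asked for a log2 difference of 1 or more (2-fold), for a difference above 2 SE, and for 1 sign in all probes of the miRNA. Since the scaling decides where 0 lies, each difference was recomputed under 12 other settings. Of these, 6 were other ways to scale the arrays, and the rest changed the background correction, the summary over spots and probes, the detection rule or the outlier filter. Differences between 2 members on the same arrays do not move with a shift of a whole array. For the members, 6 of the 12 settings were such shifts (5 of the scalings, and strict detection, which all their probes passed), so only the other 6 could turn a difference between members. These 6 were quantile normalization, normexp, total signal, brightest probe, linear means and outlier spots kept. The last of them did not move the pairs among miR-30a, miR-30c and miR-30d, which only the other 5 could turn. The 3 comparisons share arrays in pairs, so their values are not independent of each other.

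For the labelled tissue, all 6 hepatocyte miRNAs listed were measured, meaning detected on all 3 arrays. Of 3 muscle miRNAs none was measured. On no array was miR-206 detected, while miR-133a was detected in late torpor only and miR-1 in late torpor and early arousal. The summed scaled level of the hepatocyte list, in multiples of the 75th percentile, was 122 in late torpor, 107 in early arousal and 96.8 in post-reproduction. The red blood cell list, measured in 3 of 3, summed to 8.84 in late torpor, 5.35 in early arousal and 3.72 in post-reproduction. The leukocyte list, measured in 6 of 7 with miR-155 not detected on any array, summed to 1.72, 1.25 and 1.28 in the same stages. The endothelial list (4 of 4) summed to 3.64, 3.34 and 3.18, and the mesenchymal list (4 of 5) to 0.479, 0.436 and 0.478. Of the neural list, miR-128 was measured and miR-124 and miR-9 were not detected. In pooled tissue RNA, fewer cells of a type and less RNA per cell cannot be told apart.

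After the reported scaling, miR-30e was the member with the widest range over the stages. Its 17-base probe had 301.7 ± 12.9 intensity units in late torpor (SD over 10 spots), 272 ± 8.17 in early arousal (10 spots) and 239 ± 6.46 in post-reproduction (9 spots). Its 16-base probe had 76.3 ± 2.01, 67.6 ± 4.51 and 56.3 ± 2.99 units in the same stages. On both probes late torpor was the brightest stage and post-reproduction the dimmest, and every spot in post-reproduction lay below every spot of the other stages after scaling. The scaled log2 value of miR-30e was -1.20 in late torpor, -1.37 in early arousal and -1.78 in post-reproduction. The summed hepatocyte, red blood cell and endothelial markers lay in the same order of stages. Most of the hepatocyte sum was miR-122, at a scaled log2 value of 6.76 in late torpor beside 2.21 for miR-192. In early arousal against late torpor the hepatocyte list was split, with 2 of 6 above 0 (miR-365 highest at 0.25) and 4 below. The endothelial list was split beneath its sum: miR-221 and miR-222 were below 0 in both comparisons with post-reproduction and its medians were 0.024 in late torpor and -0.11 in early arousal. Of these lists the red blood cell list had the largest median differences, 1.31 in late torpor and 0.53 in early arousal against post-reproduction. The part of these cell types in the result was not tested.

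miR-30b had another profile. Its 17-base probe had 766 ± 19.3 intensity units in late torpor (9 spots), 970 ± 40.9 in early arousal (10 spots) and 905 ± 9.59 in post-reproduction (8 spots). Its 16-base probe had 109.9 ± 9.19, 134.5 ± 6.30 and 123 ± 6.65 units, with 10 spots each. Both probes were brightest in early arousal, where no spot overlapped those of the other stages after scaling. The scaled log2 value was -0.27 in late torpor, 0.043 in early arousal and -0.26 in post-reproduction. Averaged over its probes and as scaled, miR-30b thus did not differ between the outer stages beyond the spread of spots. The 17-base probe alone was at -0.050 ± 0.01 (SE from spots) in late torpor against post-reproduction. With no scaling the difference of miR-30b between these stages was -0.20 ± 0.02.

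miR-30d, which shares the chromosome 15 locus with miR-30b, was near the same scaled level in late torpor and early arousal and lower in post-reproduction. Its 14-base probe had 349.6 ± 11.9 units in late torpor, 348 ± 10.6 in early arousal and 338 ± 9.85 in post-reproduction, with 10 spots each. Its 13-base probe had 268 ± 11.2, 265 ± 9.41 and 256 ± 9.19 units. The unscaled values were thus nearly level, and most of the scaled difference from post-reproduction came with the higher 75th percentile of that array. The scaled log2 values were -0.19, -0.21 and -0.44.

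miR-30a followed a like course. Its 17-base probe had 907 ± 27.7 units in late torpor, 888 ± 37.5 in early arousal and 911 ± 32.3 in post-reproduction, with 6 spots each. Its 15-base probe had 142.5 ± 6.65, 156 ± 7.12 and 143 ± 6.11 units, with 7 spots each. Its 16-base probe averaged 456, 473 and 465 units, with 7 spots each. The probes placed early arousal differently, since the 15-base probe was higher there than in late torpor by 0.13 ± 0.04 (SE from spots) and the 17-base probe was at -0.037 ± 0.03. The scaled log2 value of miR-30a was 0.16 in late torpor, 0.20 in early arousal and -0.022 in post-reproduction.

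miR-30c, the member tied to lipoprotein assembly, varied least after the reported scaling. Its 18-base probe had 615 ± 33.4 units in late torpor, 598 ± 23.6 in early arousal and 668 ± 33.2 in post-reproduction, with 10 spots each. Its 17-base probe had 113.7 ± 5.45, 119.7 ± 6.12 and 123 ± 5.31 units. Spots of all stages overlapped on both probes after scaling. The scaled log2 value was -0.40 in late torpor, -0.39 in early arousal and -0.48 in post-reproduction. Its range over the stages, 0.087, ranked 8th from the smallest among 135 measured mouse miRNAs, whose median range was 0.36. The ranges of miR-30a (0.22), miR-30d (0.25) and miR-30b (0.31) were also below that median, and that of miR-30e (0.58) was above it. The order of these ranges moves with the scaling. With no scaling the largest stage difference of miR-30c was -0.12, beside 0.052 for miR-30a and 0.058 for miR-30d.

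**Figure D1:**
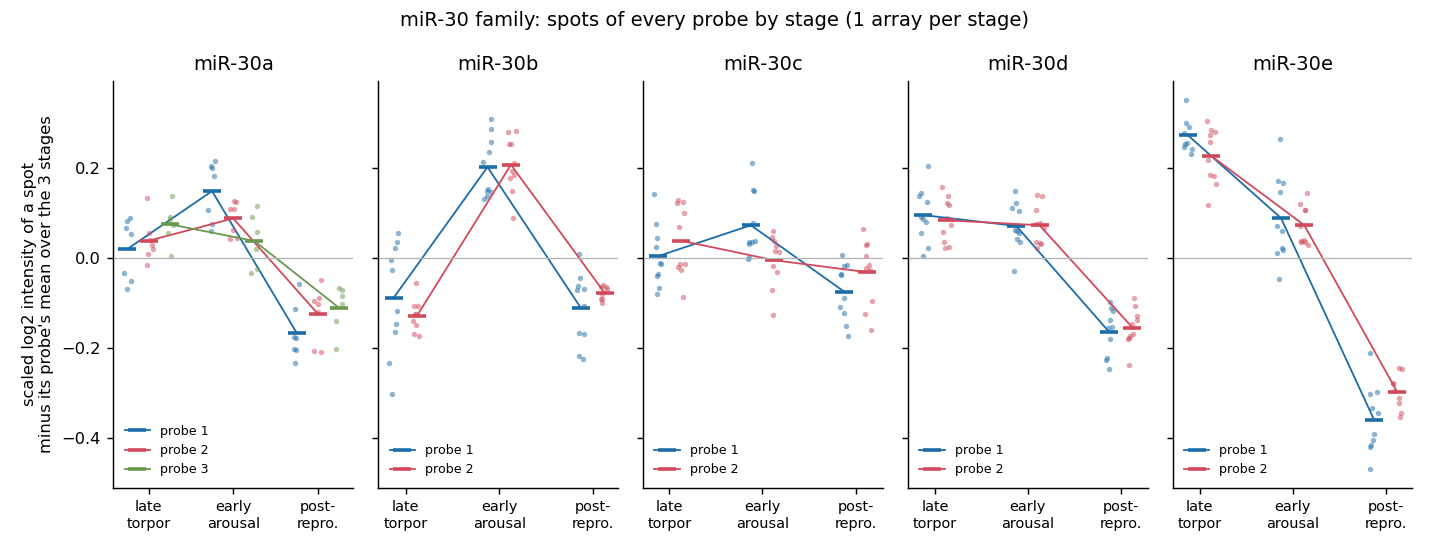
Each point is 1 spot, as its scaled log2 intensity minus the mean of its probe over the 3 stages, with 1 panel per member and 1 colour per probe. Horizontal bars are probe means joined by lines. Both probes of miR-30e step down from late torpor to post-reproduction, both probes of miR-30b peak in early arousal, and those of miR-30c overlap in all stages. The height of a whole stage moves with the scaling.

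Late torpor, the cold and metabolically depressed state of hibernation, was first set against post-reproduction, a stage of the active season. None of the 5 members passed the rule of size, against 2.22% of the 135 measured mouse miRNAs. The log2 difference was above 0 in 4 of 5 members, against 65.2% of measured miRNAs, but in 3, 2 or 1 of them under 8 of the other settings. Their median was 0.18, beside 0.13 for all measured miRNAs. After scaling, 6 of the 11 member probes had spots that did not overlap between these arrays, against 47.2% of the 246 measured mouse probes. They were 2 each for miR-30a, miR-30d and miR-30e. Counts of overlap move with the scaling and were not repeated under the other settings.

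miR-30e was 1.49-fold higher in late torpor than in post-reproduction (95% interval from spots 1.46 to 1.53), a log2 difference of 0.58 that ranked 16th from the highest of 135. It stayed above 0 under all 12 other settings, from 0.19 with the all-probe percentile taken on unsubstituted intensities to 0.58 with means of linear intensity. miR-30d was 1.19-fold higher (1.16 to 1.21), but it was below 0 with that same unsubstituted scaling (-0.14) and with the scanner program's total signal per miRNA. miR-30a was 1.13-fold higher (1.10 to 1.16) and turned below 0 under 5 settings, to -0.21 at the lowest. miR-30c, at 0.074 ± 0.02, turned under 8 settings. miR-30b was at -0.013 ± 0.02, an interval of -0.060 to 0.034, and stayed below 0 under all 12, at -0.40 at the lowest, although its probes had opposite signs (-0.050 and 0.024).

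The members were next set against each other. The log2 difference of miR-30e exceeded that of miR-30b by 0.59 ± 0.03, that of miR-30c by 0.50 ± 0.03, that of miR-30a by 0.40 ± 0.03 and that of miR-30d by 0.33 ± 0.02. The probes of the 2 members did not overlap in any of these 4 pairs, and each kept its sign under the 6 settings that could turn it. For miR-30e over miR-30b the settings gave 0.43 to 0.59. miR-30d exceeded miR-30b, its neighbour on chromosome 15, by 0.26 ± 0.03, with 0.22 to 0.31 over the settings. Of the 10 pairs of members, 9 kept their sign under those settings. The exception was miR-30a over miR-30c (0.10 ± 0.03), at -0.025 after quantile normalization.

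Early arousal, the start of rewarming, was then set against the same active stage, post-reproduction. Again 0 of 5 members passed the rule of size, against 3.7% of measured miRNAs. All 5 had a log2 difference above 0, against 55.6% of measured miRNAs, but 1 did with the 75th percentile of all probes, 2 with strict detection, 3 with total signal and 4 with no scaling or the unsubstituted all-probe percentile. The median was 0.23, beside 0.062 for all measured miRNAs. The all-probe percentile moved the median of all to -0.31 and the members' median to -0.14, by the same shift. The gap between these medians, 0.17, was 0.13 after quantile normalization and 0.11 with normexp. After scaling, 9 of the 11 member probes had spots that did not overlap, against 52% of measured mouse probes. The other 2 were those of miR-30c. Such a count moves with the scaling. Unscaled, the 14-base probe of miR-30d overlapped, at 336 to 364 units in early arousal and 319 to 354 in post-reproduction. The 17-base probe of miR-30e, at 264 to 286 and 230 to 248 units, did not.

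miR-30e was the highest member here too, 1.33-fold higher in early arousal than in post-reproduction (95% interval from spots 1.29 to 1.37), and it stayed above 0 under all 12 settings, at 0.036 at the lowest. miR-30b was 1.23-fold higher (1.20 to 1.26) and turned below 0 with the all-probe percentile alone (-0.074). miR-30d was 1.17-fold higher (1.15 to 1.20) and turned under 2 settings. miR-30a was 1.17-fold higher (1.14 to 1.20) and turned under 3. miR-30c was 1.06-fold higher (1.03 to 1.09) and turned under 5, to -0.29 at the lowest. Within the family, miR-30e exceeded miR-30c by 0.32 ± 0.03 on the log2 scale and miR-30b exceeded miR-30c by 0.21 ± 0.03, both also under the 6 settings that could turn them. miR-30d and miR-30a could not be told apart at this precision, with a difference of 0.0062 and an interval of -0.040 to 0.052. Of the 10 pairs, 8 had an interval that left out 0 and kept their sign under the settings that could turn them, and miR-30a over miR-30c (0.14 ± 0.03) turned to -0.047 after quantile normalization.

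Early arousal was last set against late torpor, the state that it ends. No member passed the rule of size, against 2.96% of measured miRNAs. A log2 difference above 0 was seen in 3 of 5 members, against 34.8% of measured miRNAs, but in 1 member with the all-probe percentile or the brightest probe, in 2 with strict detection, in 4 with the median, the percentile without the members or the total signal, and in all 5 with the unsubstituted all-probe percentile. The median was 0.013, beside -0.094 for all measured miRNAs. After scaling, 2 of 11 member probes had spots that did not overlap, both of miR-30b, against 35.4% of measured mouse probes.

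miR-30b was 1.24-fold higher in early arousal than in late torpor (95% interval from spots 1.20 to 1.28). This log2 difference of 0.31 ranked 8th from the highest of 135 and stayed above 0 under all 12 settings, from 0.063 to 0.52. miR-30e went the other way at -0.17 ± 0.02 (0.890-fold), but it was at 0.041 with the unsubstituted all-probe percentile. miR-30a was at 0.047 ± 0.02 with 2 of its 3 probes above 0. miR-30c was at 0.013, with an interval of -0.030 to 0.056 and probes of opposite sign, and miR-30d at -0.018, with an interval of -0.049 to 0.014. The signs of miR-30a, miR-30c and miR-30d turned under 2, 3 and 4 settings.

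miR-30b stood apart from every other member in this step. Its log2 difference exceeded that of miR-30e by 0.48 ± 0.03, that of miR-30d by 0.33 ± 0.03, that of miR-30c by 0.30 ± 0.03 and that of miR-30a by 0.26 ± 0.03. These 4 differences were above 0 under the 6 settings that could turn them, and the probes of the 2 members did not overlap in any of them. Among miR-30a, miR-30c and miR-30d, which lay within 0.065 of each other, no pair kept its sign under all of these. Over the family, 6 of 10 pairs did.

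The passenger strands gave a second reading of some hairpins. The array held 5 of them, and miR-30a* and miR-30e* were measured. miR-30e* had 56.6 ± 4.96 intensity units on its 18-base probe in late torpor, 50.9 ± 3.12 in early arousal and 48.4 ± 2.32 in post-reproduction, with 10 spots each. Its 17-base probe had 19.0 ± 1.93, 16.4 ± 1.98 and 15.6 ± 2.60 units, with 9, 9 and 10 spots. Its stages thus lay in the order of its guide miR-30e. The log2 difference of miR-30e* was 0.45 ± 0.05 for late torpor and 0.26 ± 0.05 for early arousal, each against post-reproduction, and -0.19 ± 0.05 for early arousal against late torpor. The first of these was above 0 under all 12 settings, at 0.059 at the lowest. The second turned below 0 with the all-probe percentile (-0.11) and with strict detection, and the third turned above 0 (0.021) with the unsubstituted all-probe percentile.

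miR-30a* was close to level. Its 17-base probe had 49.2 ± 3.91 intensity units in late torpor, 51.4 ± 2.82 in early arousal and 55.8 ± 5.70 in post-reproduction, with 10 spots each, which overlapped. Its scaled log2 difference, whose sign turned under 2, 7 and 1 of the settings in the order given, was -0.034 ± 0.05 for late torpor and 0.020 ± 0.04 for early arousal, each against post-reproduction, and 0.054 ± 0.04 for early arousal against late torpor. The difference of its guide miR-30a exceeded that of miR-30a* by 0.21 ± 0.05 in late torpor against post-reproduction and by 0.21 ± 0.04 in early arousal against post-reproduction. For miR-30e over miR-30e* the same values were 0.13 ± 0.05 and 0.15 ± 0.06. These gaps were narrower under some other settings. In late torpor minus post-reproduction, normexp gave 0.15 for miR-30a and 0.082 for miR-30a*. Quantile normalization gave 0.37 for miR-30e and 0.30 for miR-30e*. In early arousal against late torpor guide and passenger did not differ beyond the spread of spots, with intervals of -0.093 to 0.080 for miR-30a and -0.078 to 0.12 for miR-30e.

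The remaining passenger entries were not measured. miR-30b* and miR-30c-1* had 0 kept spots well above background on any array, and their probe means were at most 3.48 intensity units. The 19-base probe of miR-30c-2* had 6.26 ± 2.09 units in late torpor (1 of 10 spots well above background), 8.14 ± 1.63 in early arousal (1 of 10) and 9.91 ± 1.85 in post-reproduction (3 of 8). miR-384-5p, which has the same seed as the family and is known from brain, had probe means between -1.38 and -0.0874 units and no kept spot well above background. Low values on a mouse probe do not show that the squirrel strand was missing.

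**Figure D2:**
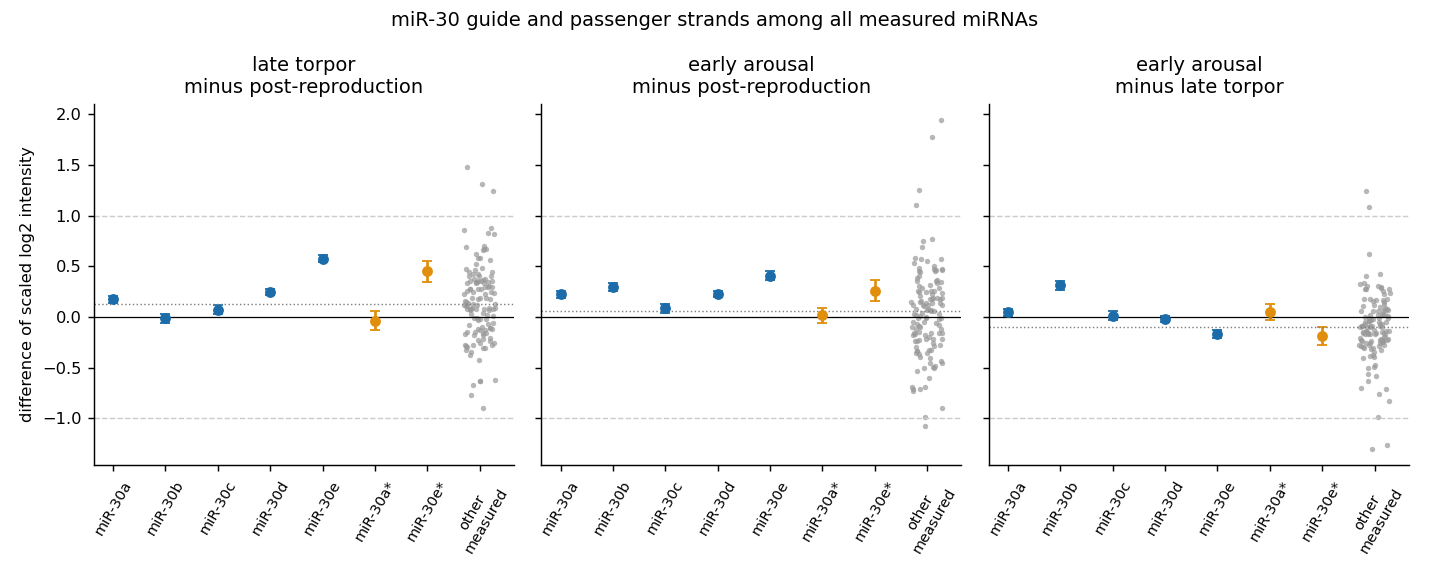
Differences of scaled log2 intensity are shown for the 5 guides (blue), the 2 measured passenger strands (orange) and the other measured mouse miRNAs (grey). Bars are 95% intervals from spots, dashed lines mark the size of 1 and dotted lines the median of all measured miRNAs. Among the named strands, miR-30e and miR-30e* are the highest in late torpor minus post-reproduction, and miR-30b is the highest in early arousal minus late torpor. The values of a panel shift together with the scaling, so most signs can turn. Signs that held under all 12 other settings are those of miR-30e against post-reproduction, of miR-30b in the 2 comparisons that include late torpor, and of miR-30e* in late torpor minus post-reproduction. For miR-30b in late torpor minus post-reproduction the interval, -0.060 to 0.034, holds 0 and its probes have opposite signs.

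The family was set beside 3 others whose members share a seed and which were measured in full. In late torpor against post-reproduction the medians were 0.18 for miR-30, 0.018 for let-7 (5 of 9 above 0), -0.044 for miR-26 (1 of 2) and 0.25 for miR-29 (3 of 3). The members of miR-30 spanned 0.59, those of let-7 0.40, those of miR-29 0.21 and those of miR-26 0.17. In early arousal against post-reproduction the medians were 0.23 for miR-30, -0.21 for let-7 (0 of 9 above 0), 0.21 for miR-26 (2 of 2) and 0.066 for miR-29 (3 of 3). In that comparison let-7 spanned 0.46 and miR-29 0.35, both more than miR-30 at 0.32, and miR-26 spanned 0.14. In early arousal against late torpor the medians of miR-30, let-7, miR-26 and miR-29 were 0.013, -0.16, 0.26 and -0.088. The spans there were 0.48, 0.27, 0.31 and 0.23 in the same order. There every let-7 and miR-29 member was below 0 and both miR-26 members were above it, while miR-30 members lay on both sides. No member of the 4 families passed the rule of size. The differences between families were not tested, and signs within them move with the scaling.

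**Figure D3:**
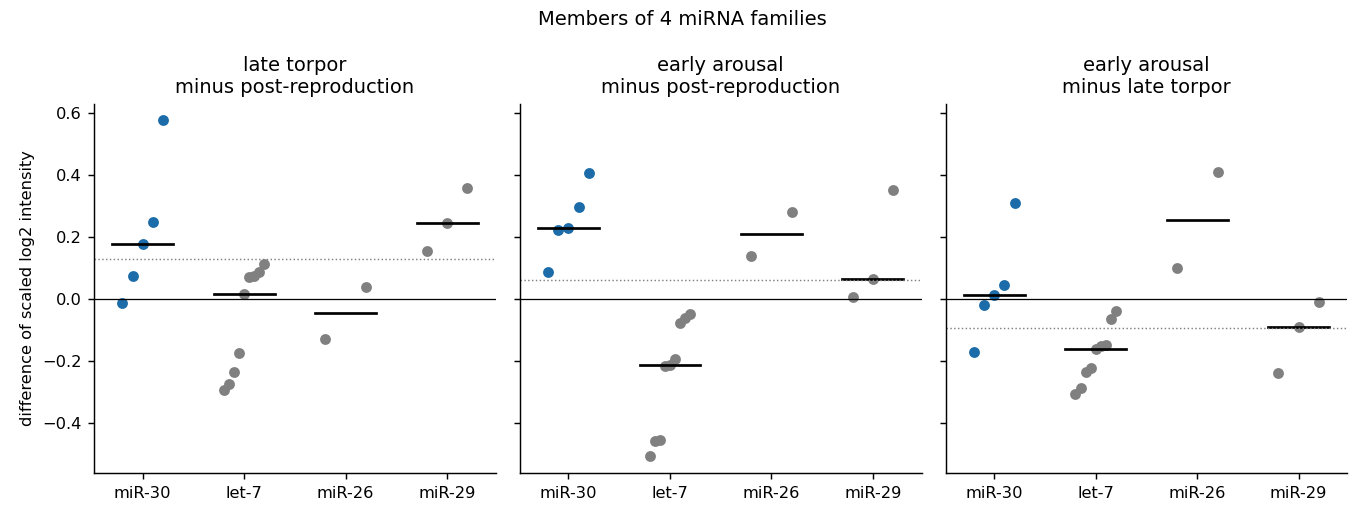
Each point is 1 member of a family, as its difference of scaled log2 intensity, and the black bar is the family's median. The dotted line is the median of all measured miRNAs. miR-30 members reach from miR-30b at -0.013 to miR-30e at 0.58 in late torpor minus post-reproduction, and the order of miR-30b and miR-30e is reversed in early arousal minus late torpor. The position of 0 moves with the scaling.

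Likeness of pattern was measured as the Euclidean distance between the 3 scaled log2 values, each centred on its own mean over the stages, which rests on 3 arrays. Nearest to the mean profile of the members were miR-125b-5p at a distance of 0.013, miR-361 at 0.046 and miR-212 at 0.055, while the median distance of the 130 other measured miRNAs was 0.28. Nearest to single members were miR-16 for miR-30e (0.032), miR-335-5p for miR-30b (0.078), miR-125b-5p for miR-30d (0.028), miR-212 for miR-30a (0.030) and miR-145 for miR-30c (0.022). miR-212, miR-335-5p and miR-145 were dim, at scaled log2 values of -4.03, -4.28 and -4.61 in late torpor. miR-335-5p and miR-145 rested on 1 probe each. The spot SE of these 3 in late torpor minus post-reproduction, 0.14, 0.11 and 0.093, exceeded their distances. That of miR-125b-5p, 0.019, also exceeded its distance of 0.013 from the mean profile, but not its 0.028 from miR-30d. Where the SE exceeded the distance, the place as nearest is not settled. No test was made of these distances.

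**Figure D4:**
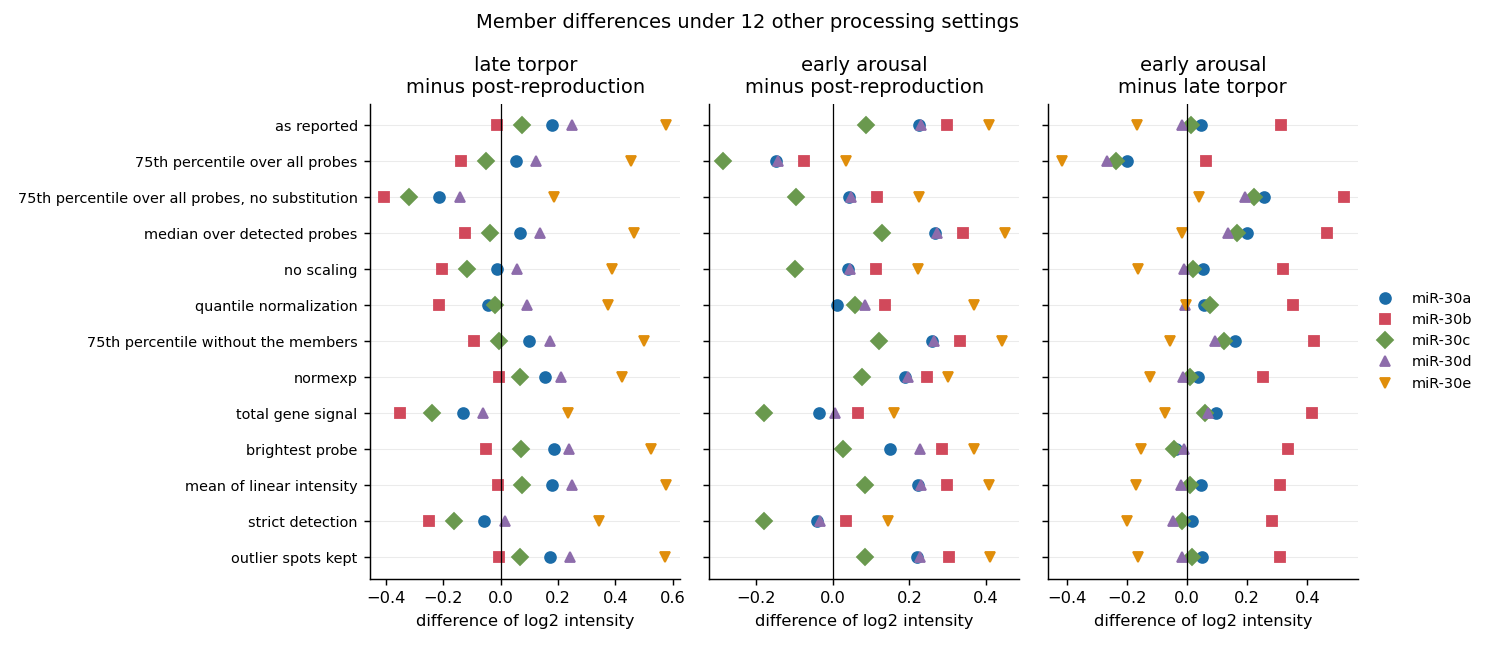
Each row is 1 way of processing the arrays and each symbol 1 member, placed by its difference of log2 intensity. The top row holds the reported values. Within a panel the symbols move together by construction in the 6 settings that shift whole arrays. miR-30e stays right of miR-30b in both comparisons with post-reproduction, by 0.11 in the reported values of early arousal, and left of it in early arousal minus late torpor.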

How the data were processed

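Scanner output came from Agilent Feature Extraction 9.5.3.1, per the submitters' processing notes. The deposited intensity of a spot was made by the authors with spatial detrending on, and with local background subtraction and multiplicative detrending off, per the file headers. At all 12493 spots of each array these values equalled those of the series table that the authors deposited. From these, control spots and spots with an outlier flag were left out, spots at or below 0 (none of a member) were set to the array's lowest well-above-background intensity, and log2 values were averaged over spots and scaled as stated above. Detection of a probe required over 50% of its kept spots to be well above background. Probes detected on every array were averaged into the miRNA's value. Python 3.11.15, pandas 2.3.3 and, for normexp (offset 50), limma 3.58.1 were used. The calculation was tested on simulated data. Arrays were grouped by their stage label. No p-value was computed, since each stage had 1 array.

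The members, lists and rules were chosen with earlier results of these data known. Named in full were the members, their passenger strands, miR-384-5p, and by the distance rule the 3 miRNAs nearest to the mean profile and the 1 nearest to each member. No value column went unused for want of a sample. miRNA sequences were not used here.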

Additional observations from a re-analysis of the deposited data

How the results depend on the processing

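Under each of the 12 alternatives 0 members passed the rule of size in all 3 comparisons. Of the values recomputed for the members, miR-30a* and miR-30e*, 102 moved by no more than their 95% interval from spots and 150 by more. The members' median in late torpor minus post-reproduction, 0.18, was 0.054 with the all-probe percentile, -0.21 with its unsubstituted form, 0.067 with the median, -0.012 with no scaling, -0.020 after quantile normalization, 0.10 with the percentile taken without the members, -0.13 with the total signal and -0.057 with strict detection. In early arousal minus post-reproduction, 0.23, it was -0.14, 0.049, 0.27, 0.046, 0.085, 0.26, 0.0066 and -0.034 in that order, and 0.20 with normexp. In early arousal minus late torpor, 0.013, it was -0.24 with the all-probe percentile, 0.22 unsubstituted, 0.16 with the median, 0.12 without the members, 0.068 with the total signal and -0.037 with the brightest probe. Among all mouse miRNAs, 3 passed the rule in late torpor minus post-reproduction (3 higher, 0 lower), and 7 did unsubstituted (1 higher, 6 lower), 5 with strict detection (3 and 2), 1 with normexp (1 and 0) and 4 with the total signal (2 and 2). The split was 3 and 1 with the all-probe percentile, the median and no scaling. In early arousal minus post-reproduction 5 did (4 higher, 1 lower), against 10 with the all-probe percentile (2 and 8) and 2 with normexp (2 and 0). The split was 3 and 3 unsubstituted, with no scaling and with the total signal, 4 and 2 after quantile normalization and with outlier spots kept, and 2 and 2 with strict detection. In early arousal minus late torpor 4 did (2 and 2), against 5 with the all-probe percentile (0 and 5), 5 with the brightest probe (2 and 3) and 0 with normexp, whose offset shrinks the differences of dim spots. The cause of the other changes was not tested.

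Every spot of the 5 members was well above background, the dimmest at 52.1 units, but low signal limits the passenger strands. The background correction still moved miR-30e, whose difference in late torpor minus post-reproduction was 0.58 as reported and 0.42 with normexp. No paired analysis was possible because each stage had 1 array, which also leaves out any check by replicate.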
